A study of Mus musculus with 3 samples.

Results

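The macrophages of the mouse lung that carry C1q transcripts were described in 3 single-cell RNA libraries made by droplet capture with barcoded beads. They were chosen by rule from their transcripts, counted as unique molecular identifiers (UMIs, each standing for 1 captured molecule). A barcode had to hold at least 250 genes, at most 15% mitochondrial UMIs, at least 5 UMIs of C1qa, C1qb and C1qc together and at least 1 UMI of Csf1r. It could hold at most 1 UMI of the alveolar macrophage genes Marco, Siglecf, Fabp1 and Krt79 together, and none of the T cell genes Cd3d, Cd3e and Cd3g, the B cell gene Cd79a or the collagen genes Col1a1 and Col1a2. This left 60 of 28782 kept barcodes. There were 34 in the lung of wild-type mice that were not irradiated (the control), 7 in the lung of irradiated wild-type mice, and 19 in the lung of irradiated mice with a conditional knockout that also received a drug, here called the knockout-drug library.

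The sources used here do not give the knocked-out gene, the promoter that drives its deletion, the drug, the radiation dose, the time after exposure, the age and strain of the mice, or how many mice a library holds. Both irradiated groups share the irradiation, and in the knockout-drug library the knockout and the drug cannot be told apart. Each group is 1 library, so no difference between groups has a replicate check, no test between groups was made and no p-value is given. Cells of a library are not replicates of a condition. Levels are UMIs per 1000000 (CPM) summed over the C1q-positive macrophages of a library, with exact 95% Poisson intervals in parentheses. These intervals, and the binomial intervals on shares, cover counting error only. Where a sum is 0, a fold is given as a lower bound with 3 UMIs in its place, which is 7.45, 17.9 and 5.72 CPM in the non-irradiated, irradiated wild-type and knockout-drug library, and no interval is printed. Log2 ratios under the alternative settings given below keep 5 CPM added to each side, also where a sum is 0.

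As background, C1q is the recognition subunit of the classical complement pathway, and its A, B and C chains are made mainly by tissue macrophages. Lung macrophages are commonly divided into alveolar macrophages, which clear surfactant in the airspace, and interstitial macrophages, which lie around vessels, airways and nerves. Interstitial macrophages are known for MHC class II antigen presentation and for cytokine and chemokine production, and monocyte-derived macrophages of injured lungs are known for a program of Spp1, Gpnmb, Trem2 and lysosomal genes.

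The C1q-positive macrophages gave 402452 UMIs in the non-irradiated library, 167806 in the irradiated wild-type library and 524308 in the knockout-drug library. The lowest, median and highest UMI count of a cell was 878, 7951 and 61467, then 6982, 27828 and 50168, then 1883, 16910 and 80385, in the same order. The deepest single cell held 15.3%, 29.9% and 15.3% of the UMIs, so the irradiated wild-type sum leans most on 1 cell. The median mitochondrial share was 3.73%, 4.97% and 4.51%. Cells with Xist and no Y-linked UMI numbered 28, 4 and 18, and 2 of the 7 in the irradiated wild-type library had Y-linked UMIs and no Xist. Among all kept barcodes of that library 27.5% were of the male kind, against 0.00764% and 0.273% in the other libraries, so sex and group are partly joined. No barcode of a C1q-positive macrophage was shared between libraries.

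C1q-positive macrophages were 0.260% (0.180 to 0.363) of kept barcodes in the non-irradiated library, 0.121% (0.0485 to 0.248) in the irradiated wild-type library and 0.192% (0.116 to 0.300) in the knockout-drug library. The exact binomial intervals of the 3 shares overlap. Without the Csf1r criterion the shares were 0.351%, 0.121% and 0.344%, in the same order of libraries. Among barcodes with Csf1r and no T, B or fibroblast UMI the shares were 8.31% of 409, 10.8% of 65 and 12.8% of 148, an order unlike that over all barcodes. These shares depend on the dissociation and the depth, and the number of such cells in the lung was not measured.

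The genes of the rule are given as a description. C1qa stood at 2259 (2114 to 2410.4), 1943 (1738 to 2165) and 1112 (1024 to 1206) CPM in the non-irradiated, irradiated wild-type and knockout-drug libraries, the order used below, C1qb at 2020.1 (1884 to 2164), 2676 (2434 to 2935) and 2256 (2129.6 to 2389) CPM and C1qc at 1066 (967 to 1172), 983 (839 to 1145) and 843 (766 to 925) CPM. Csf1r, the receptor for the macrophage growth factor CSF1, stood at 432 (370.5 to 502), 334 (252 to 433) and 187 (152 to 228) CPM. The 3 C1q genes lie side by side on the minus strand of mouse chromosome 4 (GRCm38), C1qa at 136895917-136898803, C1qb at 136880129-136886187 and C1qc at 136889804-136893065. The C1q sum of a cell ran from 5 to 324 UMIs with a median of 26 in the non-irradiated library, from 18 to 375 with a median of 156 in the irradiated wild-type library, and from 9 to 478 with a median of 43 in the knockout-drug library. Near the threshold, 3 non-irradiated cells had a sum of 5 or 6, and 8 further barcodes that met the other criteria had 3 or 4. Barcodes left out for having no Csf1r numbered 12, 0 and 15.

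The label was checked against macrophage genes outside the rule. The 20 macrophage identity genes summed to 24994 CPM in the non-irradiated cells, 57352 CPM in the irradiated wild-type cells and 81128 CPM in the knockout-drug cells, against 3838, 2030 and 2175 CPM in the other kept barcodes. Lyz2, the macrophage lysozyme, was at 12454, 23831 and 47247 CPM, and Cd68, a lysosomal membrane glycoprotein of macrophages, at 395, 703 and 971 CPM. Spi1, which encodes the myeloid transcription factor PU.1, stood at 328 (274 to 389), 334 (252 to 433) and 319 (272 to 371) CPM, level across the libraries within counting error. Among genes of perivascular interstitial macrophages, Lyve1, Cd163, Folr2 and Timd4 were rare. The list of 17 such genes summed to 1282, 381 and 809 CPM, against 1009, 358 and 353 CPM in the other kept barcodes. The list had UMIs in 31 of 34, 7 of 7 and 19 of 19 cells. Igf1 and Selenop were among its leading genes in each library. Lyve1, which marks perivascular interstitial macrophages, was found in 3 of 34, 0 of 7 and 0 of 19 cells, Cd163, the haemoglobin-haptoglobin receptor, in 1 of 34, 0 of 7 and 0 of 19, and Folr2, a folate receptor, in 2 of 34, 0 of 7 and 4 of 19. Timd4 had no UMI in any of the 60 cells. The position of the cells in the tissue was not measured, and they are called C1q-positive macrophages here.

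Set against the alveolar macrophages of the same libraries (79, 38 and 30 barcodes with at least 3 UMIs of Marco, Siglecf, Fabp1 and Krt79), 84 of the 2067 genes with at least 10 UMIs in the C1q-positive macrophages of each library were at least 2-fold higher there in all 3 libraries. Of the 4382 genes with at least 10 UMIs in the alveolar macrophages of each library, 214 were at least 2-fold lower in the C1q-positive macrophages in all 3. The numbers of cells and UMIs differ, so these counts are not a balance of the directions. Apoe, the lipid-carrying apolipoprotein E, was higher by 3.84 to 8.25 on the log2 scale, the chemokine gene Ccl4 by 3.48 to 6.10 and the costimulatory gene Cd86 by 2.99 to 3.61. The alveolar macrophage genes Ear1 (log2 ratio -6.41 to -7.41), Krt19 (-5.80 to -6.19), Cidec (-4.77 to -5.55) and Chil3 (-3.84 to -9.03) were lower. These classes were split by alveolar genes, so lower alveolar genes follow in part from the rule, and no test of the difference was made with 1 library a group. Against nonclassical monocytes (201, 10 and 57 barcodes chosen by Ace, Treml4, Cd300e and Eno3 with at most 1 C1q UMI), 59 of the same 2067 genes were higher in each library, and 130 of the 2196 genes with at least 10 UMIs in the monocytes were lower. Mmp12, macrophage elastase, was higher by 4.50 to 8.51, the tetraspan gene Ms4a7 by 3.04 to 4.85 and Trem2, a lipid-sensing receptor, by 2.48 to 3.98. The neutrophil and monocyte genes S100a9 (-4.33 to -7.32) and Fpr1 (-2.97 to -5.02) and the adhesion gene Pecam1 (-2.50 to -3.53) were lower. The rule for this monocyte class set no limit on alveolar genes. Chil3 stood at 891, 9086 and 6197 CPM in the class, against 14276, 18388 and 21629 CPM in the alveolar macrophages. Whether alveolar macrophages are among its barcodes was not tested.

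**Figure D1:**
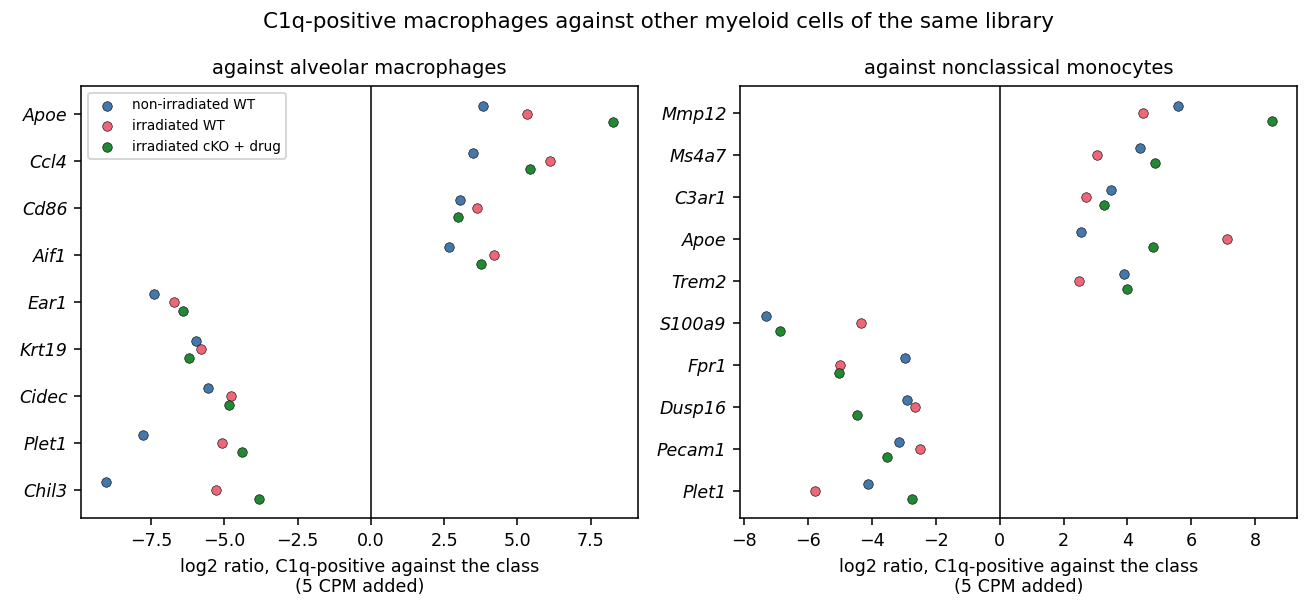
Log2 ratio of summed CPM (x axis, 5 CPM added to both sides) of C1q-positive macrophages against alveolar macrophages and against nonclassical monocytes, with 1 point for each library and gene. Apoe lies 3.84 to 8.25 above alveolar macrophages and Ear1 -6.41 to -7.41 below them.

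Markers of other cell types were not equal across libraries. The type 2 alveolar epithelial list summed to 621 CPM in the non-irradiated cells, 65.6 in the irradiated wild-type cells and 61.0 in the knockout-drug cells, below the 13202, 2800 and 2595 CPM of the other kept barcodes. The endothelial list summed to 586, 29.8 and 42.0 CPM, with UMIs in 23 of 34, 4 of 7 and 7 of 19 cells, below 2015, 216 and 282 CPM in the other barcodes. The neutrophil list stood at 67.1, 220.5 and 214 CPM, below 1307, 1215 and 4438 CPM. The alveolar macrophage list went the other way, at 890 CPM in the non-irradiated, 1978 in the irradiated wild-type and 3542 in the knockout-drug cells. The other barcodes held less, 498, 673 and 553 CPM. Marco, Fabp1 and Krt79 were at 0 in all 60 cells, which follows in part from the rule that limits them. The list also holds Atp6v0d2, Ctsk and Abcg1, described below with lysosomal and cholesterol genes. Chil3 led it in both irradiated libraries, mostly or wholly from 1 cell each, as given below. The classical monocyte list stood at 313, 364 and 740.0 CPM, against 279, 367 and 461 CPM. Conventional dendritic cell genes summed to 383, 244 and 85.8 CPM, against 385, 564 and 486 CPM in the other barcodes. They had UMIs in 30 of 34, 5 of 7 and 12 of 19 cells. Mgl2, Ccr7 and Cd24a led in the non-irradiated cells, and Flt3 and Fscn1 had UMIs in these cells only. Xcr1, Clec9a, Cd209a and Itgae were at 0 in all 60 cells. The part of these other transcripts in the differences between libraries was not tested.

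The C1q-positive macrophages of a library were not alike. The 13 genes of the MHC class II list, which present extracellular antigen to CD4 T cells, took from 0.0585% to 10.2% of the UMIs of a non-irradiated cell (median 3.59%), from 0.104% to 5.89% in the irradiated wild-type library (median 0.557%) and from 0.0169% to 11.6% in the knockout-drug library (median 0.0754%). The lysosome list took from 0.485% to 3.74% (median 1.47%), from 1.15% to 6.90% (median 3.50%) and from 0.928% to 13.95% (median 6.55%). The ranges overlap in all 3 libraries for both lists. At least 2% of UMIs were of the MHC class II list in 26 of 34 non-irradiated cells (76.5%, 58.8 to 89.3), 1 of 7 irradiated wild-type cells (14.3%, 0.361 to 57.9) and 5 of 19 knockout-drug cells (26.3%, 9.15 to 51.2). This cut was chosen after the values were seen, and 8, 2 and 1 cells lie between 1% and 3%. A cell is called MHC-II-high or MHC-II-low by it below.

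**Figure D2:**
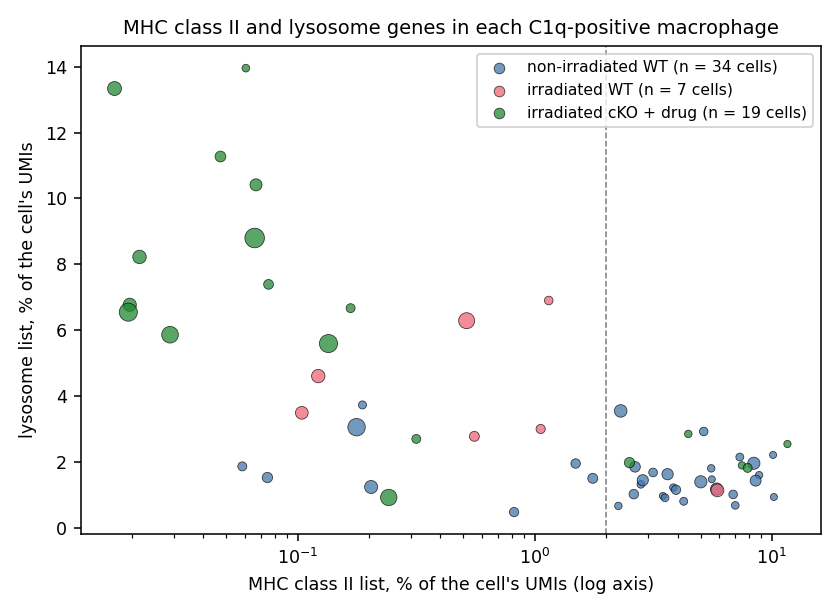
Each point is 1 C1q-positive macrophage, with the percent of its UMIs from the MHC class II list (x, log axis) and from the lysosome list (y), point size growing with its UMIs and the dashed line at 2%. Most non-irradiated cells (26 of 34) lie right of the line and low, and 14 of 19 knockout-drug cells lie left of it, reaching 13.95% lysosomal UMIs.

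Across the 19 knockout-drug cells the MHC class II share ran against the lysosome share (Spearman rho -0.75), and across the 34 non-irradiated cells the rho was -0.12. These values describe cells of 1 library, which share its depth and free RNA, and the UMI count itself ran against the MHC class II share (rho -0.65 and -0.39). The 5 MHC-II-high knockout-drug cells had a median of 2521 UMIs and the 14 MHC-II-low cells a median of 31537.5, whereas the medians were 5585 and 11771.5 in the non-irradiated library. A sum over the knockout-drug cells is therefore mostly a sum over MHC-II-low cells. An alternative keeps only cells with fewer than 2 UMIs of endothelial, epithelial, NK and neutrophil markers, with Sftpc and Scgb1a1 not counted. Pdpn, which led the type 1 alveolar list in each library, is counted, and deep cells reach 2 UMIs more easily. This left 6 non-irradiated, 0 irradiated wild-type and 4 knockout-drug cells, called few-marker cells here. Their sums held 26431 UMIs (non-irradiated) and 27143 UMIs (knockout-drug). All 10 of these cells were MHC-II-high, so this alternative does not bear on MHC-II-low cells. In an alternative with 7 cells a library drawn at random and thinned to 2000 UMIs each, called thinned cells here, 5, 1 and 3 cells were MHC-II-high. The sum of each library was then 14000 UMIs. In these small sums, and in those of the few-marker cells, single UMIs can set the ratio of a low gene. Spp1 and Ctsd differed between the kinds within the irradiated libraries. Spp1 was at 67.4 CPM in the MHC-II-high and 43079.5 CPM in the MHC-II-low knockout-drug cells, at 69.4 CPM in the 1 MHC-II-high and 5670 CPM in the 6 MHC-II-low irradiated wild-type cells, and at 176 and 137 CPM in the non-irradiated cells. Ctsd was at 1079 and 17372 CPM, at 173 and 6468 CPM, and at 1098 and 1544 CPM, in the same order of libraries. Apoe did not follow this split in the knockout-drug cells, with 22182 CPM in the MHC-II-high and 18886 CPM in the MHC-II-low cells.

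The first question the design allows is what differed between irradiated and non-irradiated wild-type lung. A gene is called higher or lower at a ratio of 2-fold or more, computed after adding 5 CPM to each library, if the library with more of it had 30 or more UMIs in 5 or more cells. These calls carry no test. In the irradiated wild-type cells 71 of 1679 genes were higher (4.23%) and 210 were lower (12.5%) than in the non-irradiated cells, 16.7% together. A higher call needs 5 of 7 cells and a lower call 5 of 34, in libraries of unlike depth, so the balance of these counts is set in part by the minimum. With no minimum of UMIs or cells 1722 genes were higher and 1559 lower. Without the deepest cell of each library the higher count under the minimum was 27, so it leans on 1 of the 7 irradiated cells. In the knockout-drug cells, 245 of 2213 genes were higher (11.1%) and 312 lower (14.1%) than in the non-irradiated cells, 25.2% together. Against the irradiated wild-type cells, 145 of 1947 genes were higher (7.45%) and 55 lower (2.82%) in the knockout-drug cells, 10.3% together. Higher calls were 72.5% of these, and 83.4% (196 higher and 39 lower) when libraries were scaled by the median of gene ratios. This balance also depends on the minimum, since with none 1416 genes were higher and 1452 lower, and at 1.5-fold, as used for lists below, 532 were higher and 678 lower. These pairs share libraries, so each pair's values stand on their own.

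For gene lists, a gene with at least 20 UMIs over both libraries is counted when its ratio was at least 1.5-fold. Over all genes this held for 17.9% higher and 22.9% lower of 3237 genes in irradiated against non-irradiated wild-type cells (median log2 ratio -0.07), for 17.6% and 26.0% of 4459 in knockout-drug against non-irradiated cells (-0.12), and for 14.9% and 19.1% of 3559 in knockout-drug against irradiated wild-type cells (-0.11). These shares are the background for each list below. Scaling by the median of gene ratios moved the median of the last pair from -0.06 to 0.12 over the genes tested at 2-fold, a shift of over 0.1, and the other pairs by less. The lists were chosen with earlier results of these data known. Genes at 0 UMIs in 1 library, set to the bound that 3 UMIs give, left the list medians quoted below as they are.

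**Figure D3:**
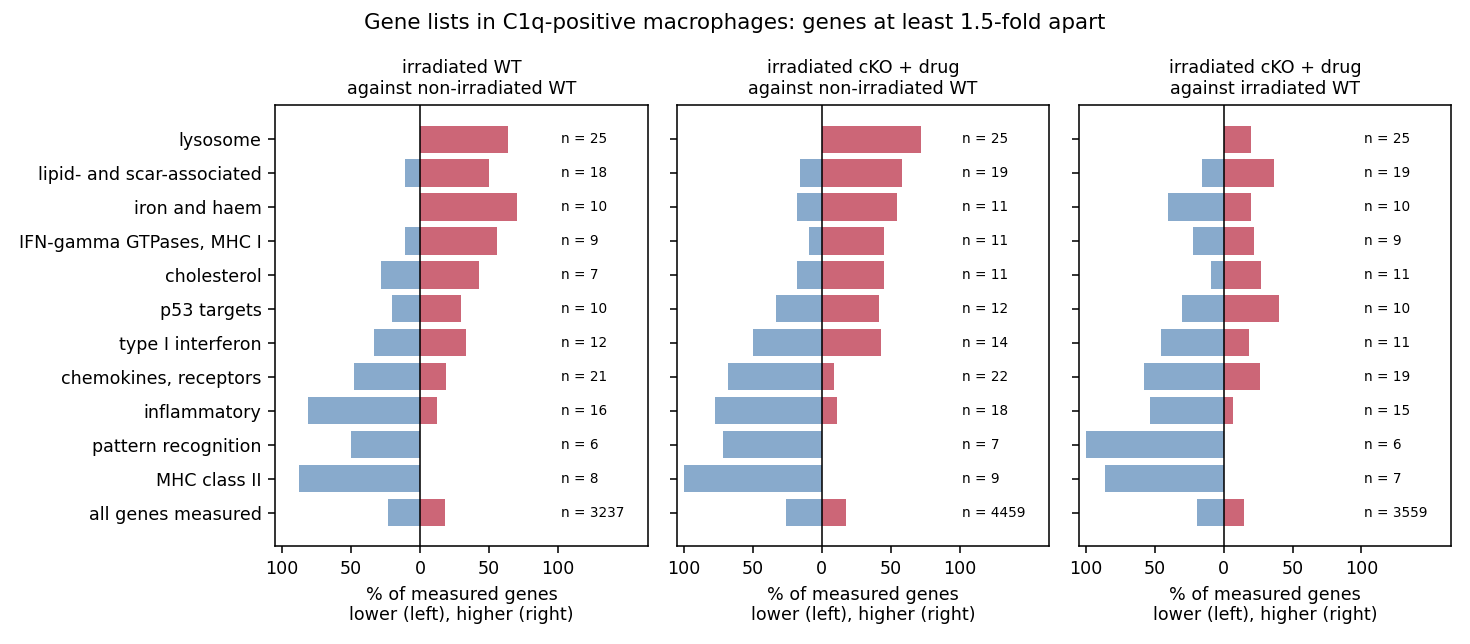
Percent of the measured genes of 12 gene sets that were at least 1.5-fold higher (right) or lower (left) in each of the 3 pairs of libraries, with the number of measured genes (n) beside each row. In these sums the lysosome set has bars to the right only and the MHC class II set to the left only, with class II between the irradiated libraries depending on cell weights, and the row for all genes gives the background of 14.9% to 26.0%.

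MHC class II genes were highest in the sums of the non-irradiated cells. H2-Aa and H2-Ab1 encode the alpha and beta chains of the class II molecule I-A, H2-Eb1 the beta chain of I-E, Cd74 the invariant chain that guides them, and H2-DMa and H2-DMb1 the exchange factor that loads peptide. H2-Ab1 in single cells had a lowest, median and highest level of 0, 5003 and 18634 CPM in the non-irradiated library, 94.0, 757 and 8883 CPM in the irradiated wild-type library and 0, 119.6 and 13397 CPM in the knockout-drug library. The highest knockout-drug cells reach the non-irradiated range, and the medians are far apart. In sums H2-Ab1 stood at 5014 (4798 to 5238), 1996 (1788 to 2222) and 429 (375 to 489) CPM, a log2 ratio of -1.33 for irradiated wild-type and -3.53 for knockout-drug against non-irradiated cells. The other kept barcodes of these libraries, B and dendritic cells among them, held 637, 779 and 523 CPM, so the knockout-drug sum was not above that of its library.

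The other class II genes had the same order. H2-Aa stood at 5392 (5167 to 5624), 2079.8 (1867 to 2309.8) and 526 (466 to 592) CPM, H2-Eb1 at 5459 (5233 to 5692), 2086 (1873 to 2316) and 446 (391 to 507) CPM and Cd74 at 14682 (14310.5 to 15062), 6829 (6439.6 to 7236) and 1979.8 (1861 to 2104) CPM. H2-DMa was at 425, 167 and 111 CPM, H2-DMb1 at 422, 167 and 101 CPM and Cd86, a ligand that costimulates T cells through CD28, at 244, 131 and 55.3 CPM. Every one of these 7 genes was lower in the irradiated wild-type sum and lowest in the knockout-drug sum. Of the MHC class II list 7 of 8 measured genes were lower and none higher in irradiated against non-irradiated wild-type cells (median log2 ratio -1.32), and 9 of 9 were lower in knockout-drug cells (-2.82). With every cell weighted equally, the knockout-drug ratios to non-irradiated cells were -1.39 for H2-Ab1, -1.48 for H2-Aa and -0.88 for Cd74, nearer 0 than in the sums. Over the few-marker cells Cd74 was at 0.23. The genes H2-Aa, H2-Ab1 and H2-Eb1 lie together on chromosome 17 of GRCm38, H2-Ab1 at 34257689-34269419 on the plus strand, H2-Aa at 34282744-34287823 on the minus strand and H2-Eb1 at 34305867-34316674 on the plus strand.

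The knockout-drug cells against the irradiated wild-type cells depend on how cells are weighted. In sums 6 of 7 class II genes were lower (median -1.78) and none higher, with H2-Eb1 at -2.21, H2-Ab1 at -2.20, H2-Aa at -1.97 and Cd74 at -1.78. With equal weight for each cell the same 4 ratios were 0.45, 0.26, 0.33 and 0.59, and no gene of the list was lower. The 5 MHC-II-high cells among the 19 are shallow, and a sum gives them little weight. The direction of class II genes between the irradiated libraries is therefore not settled by these data.

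The promoters of these lower genes are shown because class II genes are known to share promoter elements, among them the CCAAT-type Y box. The windows below come from RefSeq (GRCm38.p6), read 5′ to 3′ on the gene's strand and end just before the annotated gene, with capitals marking CCAAT or its reverse complement ATTGG. H2-Aa is chr17:34287824-34287943 on the minus strand and H2-Eb1 is chr17:34305747-34305866 on the plus strand.
H2-Aa: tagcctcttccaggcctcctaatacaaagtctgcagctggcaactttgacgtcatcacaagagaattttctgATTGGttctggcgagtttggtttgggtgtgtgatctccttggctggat
H2-Eb1: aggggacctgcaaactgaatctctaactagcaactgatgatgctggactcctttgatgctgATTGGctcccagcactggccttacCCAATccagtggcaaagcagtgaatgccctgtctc
In the 250 bases before the start, CCAAT or ATTGG was found for 6 of the 8 class II list genes with a promoter entry, of 13 in the list, and for 34.5% of 27025 genes. The pentamer is common, and a match is a description of letters and not of binding.

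Lysosomal genes were higher in the irradiated libraries than in the non-irradiated one. Of 25 measured genes 16 were higher and none lower in irradiated against non-irradiated wild-type cells (median log2 ratio 0.68), and 18 were higher and none lower in knockout-drug cells (0.88). In knockout-drug against irradiated wild-type cells 5 of 25 were higher and none lower (0.15). Ctsd, the aspartic protease cathepsin D, had a lowest, median and highest cell level of 0, 383 and 5288 CPM in the non-irradiated, 173, 4233 and 18906 CPM in the irradiated wild-type and 0, 12291 and 93523 CPM in the knockout-drug library. The groups overlap at the low end, and the irradiated libraries hold cells above the highest non-irradiated cell. In sums Ctsd stood at 1267 (1159.6 to 1382), 5387 (5042 to 5750.1) and 16450.3 (16105 to 16801) CPM, log2 ratios of 2.08 and 3.69 against the non-irradiated cells and 1.61 between the irradiated libraries. At 2000 UMIs a cell, Ctsd was seen in 56.7% of 30, 85.7% of 7 and 94.4% of 18 C1q-positive macrophages, and in 15.7%, 18.3% and 18.9% of T cells. T cells serve here as a measure of free RNA for genes they do not make. Whether their Ctsd UMIs are free RNA or their own was not tested.

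Ctsl, the cysteine protease cathepsin L, stood at 497 (430.5 to 571), 1263 (1099 to 1445) and 8974 (8719 to 9234) CPM, with cell medians of 99.3, 533 and 1377 CPM. Atp6v0d2, a subunit of the proton pump that acidifies lysosomes, stood at 39.8 (22.7 to 64.6), 334 (252 to 433) and 795 (721 to 875) CPM and was found in 3 of 34, 6 of 7 and 13 of 19 cells. The cysteine proteases Ctsb (1958, 4583 and 6820.4 CPM) and Ctss (2636, 7687 and 10381 CPM), the saposin precursor Psap (3749.5, 9940.0 and 10475 CPM) and the progranulin gene Grn (363, 733 and 984 CPM) had lower folds but high levels. Their order was the same, with the non-irradiated cells lowest. Lipa, the lysosomal acid lipase, was at 261, 560.2 and 481 CPM and Lamp1, a lysosomal membrane protein, at 865, 1299 and 1316 CPM, with little between the irradiated libraries. Ctsk, a collagen-degrading cathepsin, was at 87.0, 137 and 383 CPM in 2 of 34, 3 of 7 and 10 of 19 cells.

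The Ctsd promoter is shown because it carries the core letters of the E-box known as the lysosomal CLEAR element, GTCACGTG or its reverse complement CACGTGAC, in capitals. The window is chr7:142388039-142388077 of GRCm38.p6 on the minus strand, from RefSeq, ending just before the gene at 7:142375911-142388038.
Ctsd: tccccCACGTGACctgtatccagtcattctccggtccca
Within 250 bases before the start the element was found for 3 of 20 lysosome list genes with an entry (Ctsd, Lamp1 and Mcoln1, of 27 in the list), for none of 8 class II and none of 19 chemokine genes, and for 1.89% of 27025 genes.

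Lipid-handling and scar-associated genes were more often higher than lower in the irradiated libraries. Of its measured genes 9 of 18 were higher and 2 lower in irradiated against non-irradiated wild-type cells (median 0.53), and 11 of 19 were higher and 3 lower in knockout-drug cells (0.84). Spp1, which encodes the secreted matrix protein osteopontin, had the highest ratio of the genes named by rule in both comparisons. Its lowest, median and highest cell level was 0, 85.8 and 2278 CPM in the non-irradiated, 69.4, 2372 and 47264 CPM in the irradiated wild-type and 0, 7058 and 97330.3 CPM in the knockout-drug library. The ranges overlap at the low end, where 3 knockout-drug cells, all MHC-II-high, had no Spp1 UMI. The shallowest MHC-II-low knockout-drug cell held 76 Spp1 UMIs of 3304. In sums Spp1 stood at 162 (125 to 206), 4708 (4385 to 5048) and 40646 (40102 to 41195) CPM, log2 ratios of 4.82 and 7.93 against the non-irradiated cells and 3.11 between the irradiated libraries. The last was 2.27 without the deepest cell of each library and -0.13 with 7 cells a library drawn at random and thinned to 2000 UMIs each. That draw took 3 MHC-II-high knockout-drug cells, a kind with little Spp1. With equal weight for each cell of the main sums the ratio did not change sign. Its size therefore depends on which cells are taken.

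Spp1 was also higher in the other barcodes of the irradiated libraries, at 43.6, 189 and 309 CPM over the other kept barcodes. At 2000 UMIs a cell it was seen in 26.7%, 85.7% and 77.8% of the C1q-positive macrophages, against 21 of 34, 7 of 7 and 16 of 19 cells at full depth, and in 1.01%, 0.773% and 3.93% of T cells. Over the few-marker cells, all MHC-II-high, the ratio of the knockout-drug to the non-irradiated library was -1.50, and MHC-II-high cells of the knockout-drug library had little Spp1, as given above.

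Gpnmb, a transmembrane glycoprotein of lysosome-rich macrophages, stood at 330.5 (277 to 392), 1001 (855 to 1165) and 2376 (2246 to 2512) CPM and was found in 4 of 34, 5 of 7 and 13 of 19 cells. At 2000 UMIs a cell the shares were 10.0%, 57.1% and 72.2%, and 0.670%, 1.64% and 1.37% in T cells. Most of the few non-irradiated Gpnmb cells also carried Atp6v0d2, which was found in 3 of 4 cells with Gpnmb and in none of 30 without, where a count of 0 allows a share of up to 10.0%. In the knockout-drug library it was found in 12 of 13 cells with and 1 of 6 without Gpnmb. Cells with Gpnmb were deeper, with a median of 28451 UMIs against 6861.5 without it in the non-irradiated library. In the knockout-drug library the medians were 30603 and 5365, so these counts are not at equal depth. Spp1 did not follow Gpnmb in the non-irradiated library, at 168 CPM in cells with and 158 CPM in cells without it. In the knockout-drug library Spp1 stood at 47583 CPM in cells with and 91.4 CPM in cells without Gpnmb.

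Other genes of the list were spread more evenly or came from few cells. Trem2 stood at 286 (236 to 343), 799 (669 to 946) and 1190.1 (1099 to 1287) CPM and was found in 17 of 34, 7 of 7 and 19 of 19 cells. Apoe stood at 3630.2 (3446 to 3821), 21030.2 (20342 to 21736) and 19073 (18701 to 19450.3) CPM, high in both irradiated libraries with a ratio of -0.14 between them. The fatty acid carriers Fabp5 (683, 2092 and 3336 CPM) and Fabp4 (24.8, 83.4 and 313 CPM) had the order of Spp1 in sums (Fabp4 was -0.95 between the irradiated libraries in thinned cells), whereas Mmp12 (1970.4, 2467 and 1821 CPM) did not. Syngr1, a synaptogyrin of vesicles, stood at 22.4 (10.2 to 42.5), 29.8 (9.67 to 69.5) and 368 (318 to 424) CPM and was found in 3 of 34, 2 of 7 and 11 of 19 cells. Lpl, lipoprotein lipase, was at 817, 1359 and 1738 CPM.

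**Figure D4:**
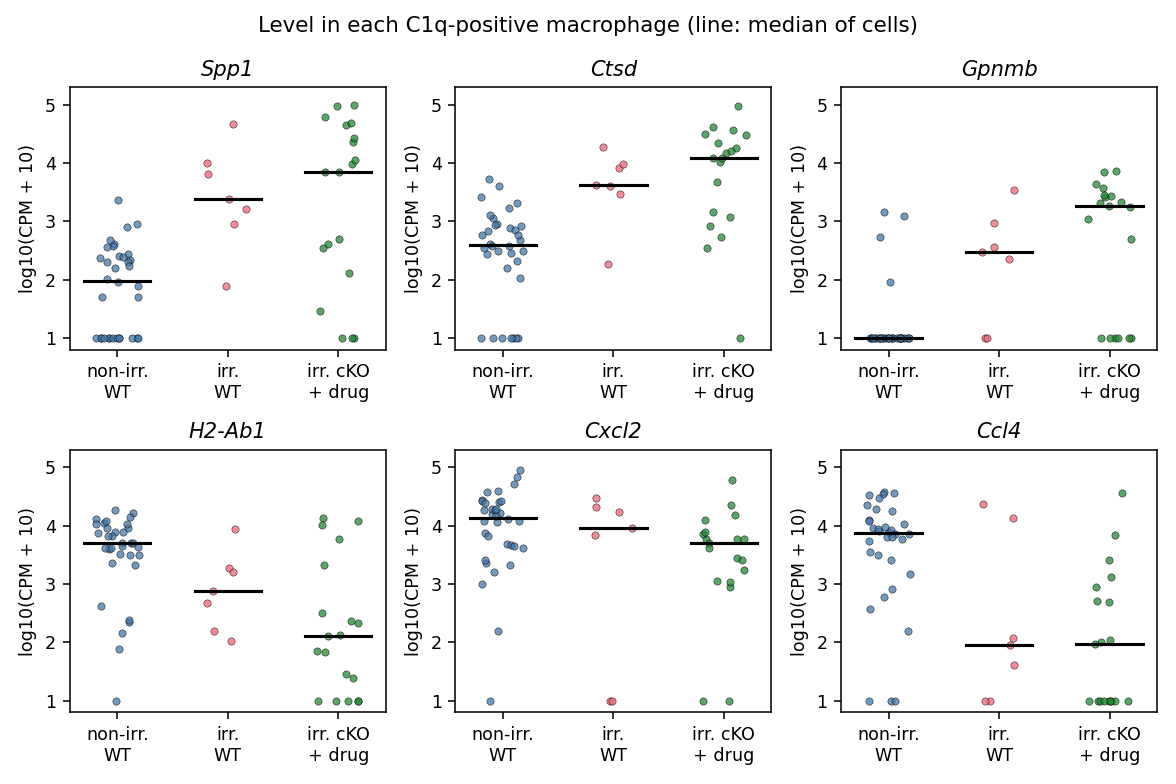
Level of Spp1, Ctsd, Gpnmb, H2-Ab1, Cxcl2 and Ccl4 in each C1q-positive macrophage (y, log10 of CPM plus 10), 1 point for each cell and a line at the median, for 34 non-irradiated, 7 irradiated wild-type and 19 knockout-drug cells. The median lines of Spp1 and Ctsd climb over the 3 libraries, and those of H2-Ab1 and Cxcl2 step down.

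Some genes with high ratios rested on single cells. Mfge8, a bridging protein for the uptake of dying cells, stood at 119 (87.9 to 158), 429 (336 to 540.3) and 2699 (2560.0 to 2843) CPM, with 85.4% of its non-irradiated and 68.2% of its knockout-drug UMIs in 1 cell each. Over the few-marker cells the Mfge8 ratio of knockout-drug to non-irradiated cells was -3.10, from sums so small that a single UMI can set it. Chil3, a chitinase-like protein of alveolar macrophages, stood at 22.4 (10.2 to 42.5), 465 (367 to 580.1) and 1511 (1407 to 1619.5) CPM, with 91.8% of the knockout-drug UMIs in 1 cell and all irradiated wild-type UMIs in 1 of 7 cells. In the efferocytosis list 5 of 12 genes were higher and 4 lower in irradiated against non-irradiated wild-type cells, and 6 of 14 were higher and 5 lower in knockout-drug cells. Mertk, a receptor for dying cells, was at 22.4, 107 and 85.8 CPM.

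More iron and cholesterol genes were higher than lower in each irradiated library against the non-irradiated cells. Of the cholesterol list 3 of 7 genes were higher and 2 lower in irradiated against non-irradiated wild-type cells (median 0.31), and 5 of 11 were higher and 2 lower in knockout-drug cells (0.52). Soat1, which esterifies cholesterol for storage, was at 62.1 (40.2 to 91.7), 262 (191 to 352) and 223 (185 to 267) CPM and Abcg1, a cholesterol exporter, at 42.2 (24.6 to 67.6), 125 (77.5 to 191) and 217 (179 to 261) CPM. Soat1 was at -0.034 in knockout-drug against non-irradiated few-marker cells. Of the iron list 7 of 10 were higher and none lower in irradiated wild-type cells (0.75), and 6 of 11 were higher and 2 lower in knockout-drug cells (1.09). Trf, which encodes transferrin, stood at 142 (107 to 184), 483 (383 to 600.0) and 450.1 (395 to 511) CPM, and Slc48a1, a haem transporter of the lysosome, at 34.8 (19.0 to 58.4), 167 (111 to 241) and 107 (80.7 to 139) CPM. In thinned cells the Trf ratio of irradiated to non-irradiated wild-type cells was -2.50. Hmox1, which breaks down haem, was at 268, 423 and 729 CPM, and Blvra, biliverdin reductase, at 14.9, 95.3 and 93.5 CPM. Hmox1 was at -0.29 in knockout-drug against non-irradiated few-marker cells.

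**Figure D5:**
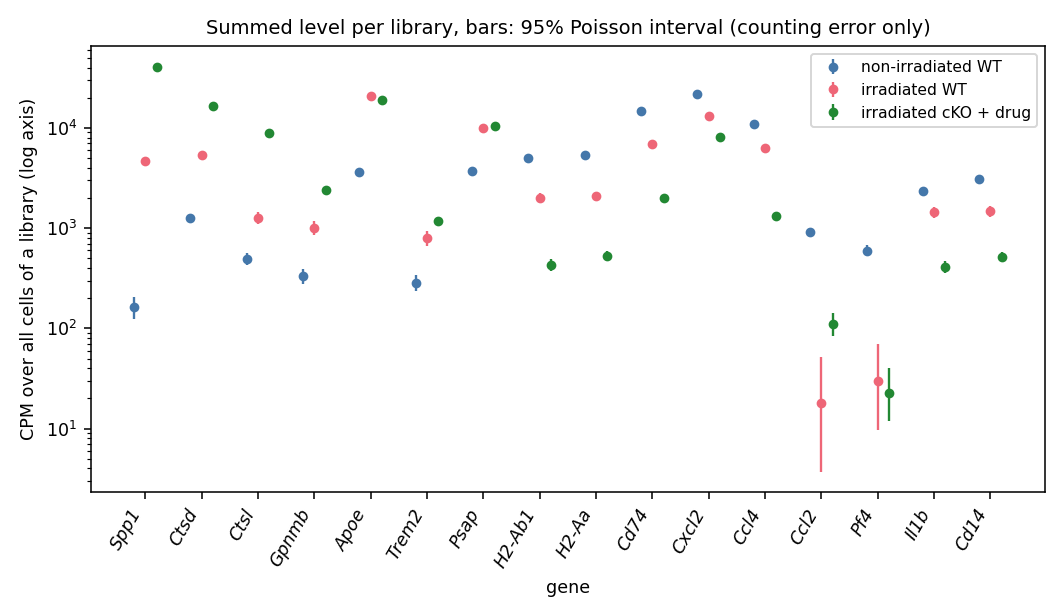
Summed level of 16 genes (CPM, log axis) in the C1q-positive macrophages of each library, with exact 95% Poisson intervals that cover counting error only. Spp1 runs from 162 to 40646 CPM and H2-Ab1 from 5014 down to 429 CPM.

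Most of the named chemokine genes were highest in the non-irradiated cells. Of the list of chemokines and their receptors 10 of 21 measured genes were lower and 4 higher in irradiated against non-irradiated wild-type cells (median -0.36), and 15 of 22 were lower and 2 higher in knockout-drug cells (-1.52). Between the irradiated libraries 11 of 19 were lower and 5 higher in knockout-drug cells (-0.86). The neutrophil attractant Cxcl2 had a lowest, median and highest cell level of 0, 13704 and 91068 CPM in the non-irradiated, 0, 9014 and 30089 CPM in the irradiated wild-type and 0, 5027 and 61005 CPM in the knockout-drug library. The ranges overlap throughout, and the sums were 21657 (21205 to 22117), 13128 (12586 to 13688) and 8127 (7885 to 8375) CPM. Cxcl1, a further neutrophil attractant, stood at 4408 (4205 to 4618), 3725 (3438 to 4028) and 576 (513 to 645) CPM in 24 of 34, 4 of 7 and 6 of 19 cells, and Cxcl3 at 2239 (2095 to 2389.9), 1031 (883 to 1197) and 49.6 (32.4 to 72.7) CPM in 17 of 34, 1 of 7 and 4 of 19 cells, so its irradiated wild-type level came from 1 cell.

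Ccl4, which attracts lymphocytes and monocytes, had cell levels of 0, 7377 and 37785 CPM in the non-irradiated, 0, 78.4 and 23609 CPM in the irradiated wild-type and 0, 84.6 and 35707 CPM in the knockout-drug library. In sums Ccl4 stood at 10921 (10600.1 to 11248), 6275 (5902 to 6666) and 1335 (1238 to 1438) CPM, a log2 ratio of -3.03 for knockout-drug against non-irradiated cells. In the knockout-drug library 1 MHC-II-high cell of 14507 UMIs held 518 Ccl4 UMIs, and the other 4 MHC-II-high cells held 13, 2, 0 and 11. The same cell held 885 Cxcl2 UMIs, a level of 61005 CPM, and the other 4 held 11, 2, 0 and 22. The median chemokine share of UMIs was 0.782% in the MHC-II-high and 0.817% in the MHC-II-low knockout-drug cells. The Ccl4 ratio of knockout-drug to non-irradiated cells was 0.43 in thinned cells and 0.98 over the few-marker cells, which include that cell.

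The monocyte attractants Ccl2 and Ccl7, ligands of CCR2 that lie at 11:82035571-82037453 and 11:82045712-82047525 on the plus strand, were found mainly in the non-irradiated cells. Ccl2 stood at 914 (823 to 1013), 17.9 (3.69 to 52.2) and 111 (84.0 to 143) CPM in 16 of 34, 3 of 7 and 7 of 19 cells and Ccl7 at 293 (243 to 351), 5.96 (0.151 to 33.2) and 70.6 (49.7 to 97.3) CPM. Pf4, platelet factor 4, which macrophages of some tissues also make, stood at 596 (523 to 677), 29.8 (9.67 to 69.5) and 22.9 (11.8 to 40.0) CPM in 16 of 34, 2 of 7 and 6 of 19 cells. At 2000 UMIs a cell, Ccl2 was seen in 40.0%, 0% and 5.56% and Pf4 in 26.7%, 0% and 0% of cells, where 0 of 7 cells allows a share of up to 42.9%. In T cells at that depth Ccl2 was seen in 0.335%, 0.318% and 0.174%. Against this direction, Ccl6 was highest in the knockout-drug cells (1123, 936 and 3250.0 CPM), and Ccl8 stood at 2.48 (0.0629 to 13.8), 0 and 68.7 (48.1 to 95.1) CPM. The interferon-induced Cxcl10 was at 949, 1186 and 244 CPM.

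The promoters of the 3 neutrophil attractants are shown because they lie in 1 cluster on chromosome 5 and each holds a letter pattern of the NF-kB type, the letters GGG, 2 bases of any kind and TTTCC, or their reverse complement, in capitals. The genes are Cxcl3 at 90786103-90789600, Cxcl1 at 90891241-90893115 and Cxcl2 at 90903871-90905938, all on the plus strand of GRCm38. The windows are chr5:90785981-90786100 for Cxcl3, chr5:90891125-90891240 for Cxcl1 and chr5:90903779-90903870 for Cxcl2, from RefSeq.
Cxcl3: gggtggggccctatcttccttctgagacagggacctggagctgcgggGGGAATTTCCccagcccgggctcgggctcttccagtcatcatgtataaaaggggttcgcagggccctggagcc
Cxcl1: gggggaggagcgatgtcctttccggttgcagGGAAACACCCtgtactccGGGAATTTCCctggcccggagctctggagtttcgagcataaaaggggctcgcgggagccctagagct
Cxcl2: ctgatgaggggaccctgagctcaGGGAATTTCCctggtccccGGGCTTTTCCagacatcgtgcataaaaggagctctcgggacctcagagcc
The pattern was found within 250 bases before the start for 4 of 19 chemokine genes with an entry (these and Ccl9, of 26 in the list), for none of 20 lysosome and none of 8 class II genes, and for 1.40% of 27025 genes.

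Inflammatory genes had the order of the chemokines. Of the inflammatory cytokine list 13 of 16 genes were lower and 2 higher in irradiated against non-irradiated wild-type cells (median -0.91), and 14 of 18 were lower and 2 higher in knockout-drug cells (-1.42). Il1b, the secreted form of interleukin 1, stood at 2363 (2215 to 2518), 1436 (1261 to 1629) and 414 (361 to 473) CPM in 25 of 34, 3 of 7 and 5 of 19 cells, and Ptgs2, the inducible prostaglandin synthase, at 1259.8 (1152 to 1374), 441 (346 to 554) and 175 (141 to 215) CPM. Il6 was at 129 (96.5 to 169), 47.7 (20.6 to 93.9) and 7.63 (2.08 to 19.5) CPM. Its ratio was 3.93 for irradiated against non-irradiated wild-type thinned cells and 0.88 for knockout-drug against non-irradiated few-marker cells. Single UMIs can set a ratio in those small sums, so these 2 values do not settle a direction. Tnf was at 835 (748 to 929), 495 (394 to 613) and 404 (352 to 463) CPM. Socs3, a feedback inhibitor of cytokine signals, was at 723, 244 and 95.4 CPM and Nfkbia, the inhibitor of NF-kB, at 3347, 1847 and 1266 CPM. Without the deepest cell of each library the lower count in irradiated wild-type cells was 5.

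Some cytokine genes came from few cells. Il10, an anti-inflammatory cytokine, stood at 211 (169 to 261), 465 (367 to 580.1) and 7.63 (2.08 to 19.5) CPM, but 98.7% of the irradiated wild-type UMIs were in 1 cell. Ifnb1, the type I interferon beta, was found in 7 of 34, 2 of 7 and 0 of 19 cells and was at least 15.6-fold lower in the knockout-drug than in the non-irradiated sum, with 3 UMIs taken as the limit of a count of 0 in a library. Of the pattern recognition list 3 of 6 genes were lower and none higher in irradiated wild-type cells (-0.45), and 5 of 7 were lower and none higher in knockout-drug cells (-1.22). Cd14, the co-receptor for bacterial lipopolysaccharide, stood at 3111 (2941 to 3288), 1472 (1294 to 1667) and 515 (455 to 580.2) CPM in 32 of 34, 6 of 7 and 12 of 19 cells, and Tlr2, a receptor for bacterial lipoproteins, at 485, 316 and 134 CPM.

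Interferon-stimulated genes moved in no single direction. Of the type I list 4 of 12 genes were higher and 4 lower in irradiated against non-irradiated wild-type cells (median 0.05), and 6 of 14 were higher and 7 lower in knockout-drug cells (-0.47). Ifit1, an antiviral RNA-binding protein, stood at 248 (202 to 302), 5.96 (0.151 to 33.2) and 28.6 (16.0 to 47.2) CPM, with 52.0% of its non-irradiated UMIs in 1 cell. For knockout-drug against non-irradiated cells it was at 5.45 in thinned and 1.05 in few-marker cells, from small sums in which a few UMIs can set the ratio. Lgals3bp, a galectin-binding glycoprotein, went the other way at 49.7 (30.4 to 76.8), 328 (247 to 427) and 368 (318 to 424) CPM in 10 of 34, 5 of 7 and 16 of 19 cells. Ifi27l2a stood at 109 (79.4 to 147), 614 (501 to 744) and 242 (202 to 288) CPM, with 64.1% of the irradiated wild-type UMIs in 1 cell. Of the interferon gamma and MHC class I list 5 of 9 genes were higher and 1 lower in irradiated wild-type cells (0.72), and 5 of 11 were higher and 1 lower in knockout-drug cells (0.47). B2m, the light chain of class I, was at 1878 (1747 to 2017), 3534 (3255 to 3830.1) and 4724 (4540.1 to 4914) CPM and the heavy chain H2-D1 at 2089.7 (1951 to 2236), 3069 (2809.7 to 3346) and 5033 (4843 to 5229) CPM, so these class I genes had the opposite order to the class II sums.

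The p53 target genes, which DNA damage is known to induce, were mixed. Of the list 3 of 10 were higher and 2 lower in irradiated against non-irradiated wild-type cells (median 0.17), and 5 of 12 were higher and 4 lower in knockout-drug cells (0.31). Cdkn1a, the cell cycle inhibitor p21, stood at 355 (299 to 419), 685 (566 to 823) and 284 (240.4 to 334) CPM, highest in the irradiated wild-type cells. Mdm2, which degrades p53, at 142 (107 to 184), 113 (68.2 to 177) and 305 (259.7 to 356) CPM, and the stress cytokine Gdf15, at 169 (131 to 214), 250.3 (180.4 to 338) and 601 (536 to 671) CPM, were highest in the knockout-drug cells. Phlda3, an inhibitor of AKT, stood at 14.9 (5.47 to 32.4), 0 and 107 (80.7 to 139) CPM and was at least 5.97-fold higher in knockout-drug than in irradiated wild-type cells. Against non-irradiated cells it was at -3.10 over the few-marker cells, where a single UMI can set such a ratio. Of 4 cell cycle genes with enough UMIs none was higher in either irradiated library against the non-irradiated cells.

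Transcription factor genes were more often lower than higher in the irradiated libraries. Of 25 transcription factors 4 were higher and 11 lower in irradiated against non-irradiated wild-type cells, and of 29 in knockout-drug cells 5 were higher and 12 lower. Klf2, a factor of quiescence, stood at 296 (245 to 354), 11.9 (1.44 to 43.1) and 28.6 (16.0 to 47.2) CPM, and Irf4, which takes part in macrophage and dendritic cell polarisation, at 62.1 (40.2 to 91.7), 11.9 (1.44 to 43.1) and 3.81 (0.462 to 13.8) CPM. Areg, which encodes the epidermal growth factor receptor ligand amphiregulin, stood at 147 (112 to 189), 375 (288 to 480.3) and 0 CPM and was at least 25.6-fold lower in knockout-drug than in non-irradiated cells. In the irradiated wild-type library 96.8% of its UMIs were in 1 cell. Timp2, a metalloproteinase inhibitor, was at 194 (153 to 242), 447 (352 to 560.2) and 902 (823 to 987) CPM.

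The genes with the most extreme ratios outside these lists were few in cells and UMIs. Among the 10 highest in irradiated against non-irradiated wild-type cells were Chka, choline kinase, at 32.3, 352 and 191 CPM, Mgst1, a glutathione transferase, at 74.5, 405 and 275 CPM, and Itgb5, an integrin beta chain, at 62.1, 304 and 319 CPM. Tcf7l2, a factor of the Wnt pathway, had a ratio of 2.09, which was 0.59 among cells with Xist and no Y-linked UMI. Among the lowest were Emp1, an epithelial membrane protein gene, at 164, 0 and 99.2 CPM and at least 9.17-fold lower, and Stmn1, a microtubule regulator, at 74.5, 0 and 51.5 CPM and at least 4.17-fold lower. Gpr132, a G protein-coupled receptor, stood at 117 (85.8 to 155), 5.96 (0.151 to 33.2) and 15.3 (6.59 to 30.1) CPM, Tubb6, a tubulin, at 154 (118 to 197), 11.9 (1.44 to 43.1) and 70.6 (49.7 to 97.3) CPM, Sltm at 96.9 (68.9 to 132), 5.96 (0.151 to 33.2) and 55.3 (37.0 to 79.4) CPM and Mllt6 at 82.0 (56.4 to 115), 5.96 (0.151 to 33.2) and 17.2 (7.85 to 32.6) CPM, the irradiated wild-type levels resting on 1 or 2 UMIs.

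In knockout-drug against non-irradiated cells the highest ratios also took in Zranb3, a DNA annealing helicase, at 0, 23.8 (6.49 to 61.0) and 134 (104 to 169) CPM in 0 of 34, 1 of 7 and 10 of 19 cells and at least 17.9-fold higher. Slc36a2, an amino acid transporter, stood at 0, 35.8 (13.1 to 77.8) and 64.8 (44.9 to 90.6) CPM and was at least 8.70-fold higher, and Cd22, a sialic acid-binding receptor, stood at 2.48 (0.0629 to 13.8), 95.3 (54.5 to 155) and 99.2 (74.1 to 130.1) CPM. The lowest took in H2-M2, a non-classical MHC class I gene, at 263, 53.6 and 3.81 CPM with 63.2% of the non-irradiated UMIs in 1 cell. Spred1, an inhibitor of the Ras pathway, was at 236 (191 to 289), 77.5 (41.2 to 132) and 9.54 (3.096 to 22.3) CPM (a ratio of 3.93 in thinned cells, where a single UMI can set it) and Arl4c, a small GTPase, at 296 (245 to 354), 89.4 (50.03 to 147) and 15.3 (6.59 to 30.1) CPM.

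The knockout-drug cells differed from the irradiated wild-type cells in a further set. Beside Spp1, Ctsl, Syngr1, Mfge8 and Phlda3, of which Spp1, Ctsl and Mfge8 were at -0.13, -0.26 and -3.08 in the thinned cells, the highest ratios took in Emp1 (at least 5.55-fold higher), Npy, which encodes neuropeptide Y, at 2.48 (0.0629 to 13.8), 0 and 78.2 (56.1 to 106) CPM (at least 4.37-fold), and Ccl8 (at least 3.84-fold). The thinned cells are a random draw, and Spp1, Ctsl and Mfge8 did not change sign with equal weight for each cell. Hbegf, a ligand of the epidermal growth factor receptor, was at 37.3 (20.9 to 61.5), 5.96 (0.151 to 33.2) and 64.8 (44.9 to 90.6) CPM and Plpp3, a lipid phosphatase, at 7.45 (1.54 to 21.8), 5.96 (0.151 to 33.2) and 62.9 (43.3 to 88.4) CPM, both with 1 UMI in the irradiated wild-type library. The lowest took in Cxcl10 (1.09 in the thinned cells), Ccl4 and the class II genes above, and Ets2, a transcription factor, at 251 (204 to 305), 226 (160.3 to 311) and 45.8 (29.3 to 68.1) CPM. AA467197 stood at 653 (577 to 737), 1061 (911 to 1229) and 231 (191 to 276) CPM, Ppp1r15a, which reverses the translation block of the stress response, at 822 (736 to 916), 1037 (889 to 1203) and 294 (249.2 to 344) CPM, and Fcgr2b, the inhibitory Fc receptor, at 360.3 (304 to 424), 316 (237 to 413) and 91.5 (67.5 to 121) CPM. The number of cells, 7 and 19, limits each of these values.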

How the data were processed

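Lung cells of 3 groups, 1 library each, were measured by droplet single-cell RNA sequencing with 3′ barcoded beads, per the labels' protocols. The values deposited by the authors are raw UMI counts for each gene in each barcode. Per the file headers, software of version 3.1.0, not named there, wrote the matrices, and per the submitters' processing notes the build is mm10. No file column lacked a sample (0).

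Barcodes with at least 250 genes and at most 15% mitochondrial UMIs were kept, and the macrophages were taken by the rule given above. UMI counts were summed per library and scaled to CPM. Genes were compared as ratios with 5 CPM added, at least 2-fold, with at least 30 UMIs in at least 5 cells of the higher library. List genes needed 20 UMIs and 1.5-fold. With 1 library per group no test was possible. No doublet caller was run. The zero counts of T, B and fibroblast genes remove some doublets, and alternatives drop the deepest cells and those with markers of other types. Members and lists were chosen with earlier results of these data known. The named genes are the 10 highest and 10 lowest ratios per pair, leaving out genes under 50% of the level in other barcodes, and up to 4 of each list, and further list genes were named after their values were seen. T cells with at least 3 Cd3 UMIs served as a measure of free RNA at 2000 UMIs a cell. This holds only for genes that T cells do not make. The script that makes the calls was tested on simulated data. Scripts ran in python 3.11.15 with pandas 2.3.3, numpy 2.4.6, matplotlib 3.10.9 and scipy 1.17.1 (seed 1).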

Additional observations from a re-analysis of the deposited data

How the results depend on the processing

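No paired analysis was possible because each group is 1 library. Counts of genes at least 2-fold apart are given as higher and lower, for irradiated against non-irradiated wild-type cells, then knockout-drug against non-irradiated, then knockout-drug against irradiated wild-type cells. A minimum of 10 UMIs gave 207 and 625, 528 and 696, 476 and 158. A minimum of 100 gave 25 and 55, 93 and 119, 40 and 21. No minimum gave 1722 and 1559, 1076 and 1261, 1416 and 1452. With 7 cells a library thinned to 2000 UMIs the counts were 8 and 13, 5 and 12, 2 and 2. In that thinning the class II genes lower were 4, 4 and 0, the lysosome genes higher 7, 9 and 1, the lipid genes higher 4, 5 and 1, the chemokines lower 3, 3 and 0, and the inflammatory genes lower 2, 4 and 0. Fewer genes reach the minimum there.

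In knockout-drug against irradiated wild-type cells, 20 CPM added gave 90 higher, and at most 10% mitochondrial UMIs gave 33 lower. Median-of-ratios scaling gave 9 lysosome genes higher and 5 inflammatory genes lower. Equal weight for each cell gave 0 class II genes lower, 8 lysosome genes higher and 7 chemokines lower. In irradiated against non-irradiated wild-type cells, dropping cells above the 95th percentile of UMIs gave 26 higher. Over the 4 knockout-drug and 6 non-irradiated cells with few other-type markers, all MHC-II-high, 18 genes were lower, no irradiated wild-type cell was left, and a higher count could not be had from 4 cells. Among cells with Xist alone, 4 irradiated wild-type cells remained, too few for a higher count.

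These alternatives were chosen after seeing the data. Without the Csf1r criterion knockout-drug against irradiated wild-type gave 287 higher and 4 lipid genes higher, and the knockout-drug share was 0.344%. Without the deepest cell of each library irradiated wild-type cells had 27 genes higher and 5 inflammatory genes lower than non-irradiated cells, and knockout-drug cells had 11 lysosome and 13 lipid genes higher than irradiated wild-type cells.

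Log2 ratios that were at least 2-fold in the main sums and changed sign were these. Thinned, in irradiated against non-irradiated wild-type cells, Arg1 was 6.18, Il6 3.93 and Trf -2.50. In knockout-drug against non-irradiated cells Ccl4 was 0.43, Ifit1 5.45 and Spred1 3.93. In knockout-drug against irradiated wild-type cells H2-Eb1 was 0.97, H2-Aa 0.71, Cd74 0.53, Spp1 -0.13, Fabp4 -0.95, Ctsl -0.26, Mfge8 -3.08 and Cxcl10 1.09. With equal weight H2-Eb1 was 0.45, H2-Ab1 0.26, H2-Aa 0.33 and Cd74 0.59 in that pair. Over the cells with few other-type markers, in knockout-drug against non-irradiated cells, Cd74 was 0.23, Spp1 -1.50, Soat1 -0.034, Mfge8 -3.10, Il6 0.88, Ccl4 0.98, Ifit1 1.05, Phlda3 -3.10 and Hmox1 -0.29. Equal weight kept the cells and UMIs of the main sums, whereas thinning and the marker limit left fewer UMIs. Thinned sums held 14000 UMIs a library, and few-marker sums 26431 (non-irradiated) and 27143 (knockout-drug). Single UMIs can set the ratio of a low gene there, so such values do not settle a direction. The cause of these changes was not tested. Of the single-gene values under these alternatives, 27 changed sign from a main ratio of at least 2-fold. A further 371 moved beyond the counting intervals of the main sums, and 1902 did neither. Sign changes of ratios under 2-fold are not counted apart and lie among the last 2 numbers.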

Other observations

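The files list a dTomato sequence, a fluorescent reporter that the labels do not mention. It had UMIs in 1713 kept barcodes of the non-irradiated library, 237 of the irradiated wild-type library and 449 of the knockout-drug library. None of the 34, 7 and 19 C1q-positive macrophages held one. A count of 0 allows a share of cells with a dTomato UMI of up to 8.82%, 42.9% and 15.8%. Cells that carry the reporter without a captured UMI are not covered by this limit.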
